A study of Mus musculus with 15 samples.

Results

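Interferon-stimulated genes, the genes that cells switch on when they sense interferon, were examined in blood monocytes and in the macrophages of the mouse small intestine. The 38 genes were a fixed list of symbols, drawn up with earlier results of these data known and with no threshold on their levels, and all 38 were found among the 19456 genes of the count table and passed the filter on low counts, which left 15802 genes. RNA had been sequenced from Ly6Chi monocytes of the blood (n = 3 libraries) and from 3 macrophage subsets of the small intestine sorted by the surface proteins Tim-4 and CD4, namely Tim-4-CD4- cells, Tim-4-CD4+ cells, and those positive for both, Tim-4+CD4+ (n = 4 libraries each). All cells came from wild type adult male C57BL/6 mice, and each library held flow-sorted cells pooled from 3 mice, or from 4 mice for monocyte replicate 2, so that p-values measure the spread between pools and not between single mice. Monocytes came from blood and every macrophage from gut tissue, so the tissue and its handling cannot be told apart from the cell population in any comparison with monocytes. A second limit is that these are bulk samples, in which fewer cells of a type and less RNA per cell cannot be told apart. The authors describe 4 independent sorts of macrophages, so libraries of different subsets may come from the same mice. Which libraries share a sort was not clear from the labels, and the main fit did not pair them.

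Interferons are secreted when cells detect viral or microbial nucleic acids. Type I interferons (interferon alpha and beta) signal through the receptor of Ifnar1 and Ifnar2, and the kinases Jak1 and Tyk2 then activate a complex of transcription factors, with Stat2 and Irf9 among them, that binds interferon-stimulated response elements in promoters. Type II interferon (interferon gamma) signals through Ifngr1 and Ifngr2 to factors that bind gamma-activated sites. The products of the induced genes block steps of viral replication, sense foreign RNA or DNA, or restrain the response itself, and the large GTPases of the Gbp and Irg families, most typical of interferon gamma, attack the vacuoles of intracellular microbes. The gut is a tissue with steady microbial contact, and interferon-stimulated genes are known to be transcribed there and in blood monocytes at a low level without infection.

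Total counts ran from 39388763 to 151510641 per library. Levels are given as CPM, read counts scaled to a common library size by the trimmed mean of M values. Values of a population are listed from replicate 1 upward. The labels of the populations were checked on marker genes: the 5 genes of the monocyte list summed to 5670 to 8350 CPM in monocytes and to at most 829 CPM in any macrophage library, and the 8 of the macrophage list summed to 3380 to 3700 CPM in monocytes and to 25700 to 33600 CPM in macrophages. Among genes of other cells, a list of 3 plasma cell genes summed to 196 to 390 CPM in macrophage libraries and to at most 0.292 CPM in monocytes. The 3 neutrophil genes found summed to 144 to 211 CPM in monocytes and to at most 2.01 CPM in macrophages. In monocytes this was almost all Mmp8 (144 to 211 CPM), with Cxcr2 and Ltf at most at 0.224 and 0.167 CPM. In every macrophage library, T cell and NK cell genes summed to at most 9.63 and 1.41 CPM. A pair of libraries stood apart for the genes described here, monocyte replicate 1 by its high interferon-stimulated genes and Tim-4+CD4+ replicate 1 by transcript length, and calls among the 38 genes that turned on either library are given with and without it.

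Most interferon-stimulated genes were lower in gut macrophages than in blood monocytes. In Tim-4-CD4- macrophages, 27 of the 38 were lower and 6 were higher than in monocytes (edgeR quasi-likelihood test, adjusted p under 0.05), where 65.4% of all tested genes were called, 28.1% as lower and 37.3% as higher. In Tim-4-CD4+ macrophages, 26 were lower and 7 higher, where 69.8% of all genes were called (30.7% lower, 39.1% higher). In the Tim-4+CD4+ subset, 27 were lower and 6 higher, where 70.9% were called (31.3% lower, 39.5% higher). With a minimum change of 2-fold, 17, 23, and 23 of the 38 were called, beside 38.2%, 42.3%, and 43.3% of all genes. The median log2 fold change over the 38 genes was -0.74, -0.92, and -0.94 in these 3 comparisons, beside 0.08, 0.11, and 0.10 over all genes. Without overlap of libraries, 6, 6, and 5 of the 38 were higher and 24, 24, and 25 lower than in monocytes. Over all tested genes, 36.7%, 37.9%, and 37.5% were higher and 30.9%, 32.2%, and 31.2% lower without overlap, so a lack of overlap with monocytes was common. The 3 comparisons share the same monocyte libraries. In all 3, 25 genes were lower and 6 were higher, namely Isg15, Ifi44, Lgals3bp, Gbp3, Gbp7, and Iigp1, while Ifit2, Ifit3, Herc6, Parp14, and Phf11d passed the test in some comparisons and Rsad2 and Bst2 in none. Summed over the 38 genes, the level was 8941 ± 2049 CPM (SD, n = 3) in monocytes, 4514 ± 201 CPM (n = 4) in Tim-4-CD4-, 4522 ± 368 CPM in Tim-4-CD4+, and 4380 ± 374 CPM in Tim-4+CD4+ macrophages, and Samhd1 alone was at 2924 CPM in monocytes. Without monocyte replicate 1, the counts called were 29, 30, and 31 in place of 33, 33, and 33, and without monocyte replicate 2 they were 34, 34, and 34.

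**Figure D1:**
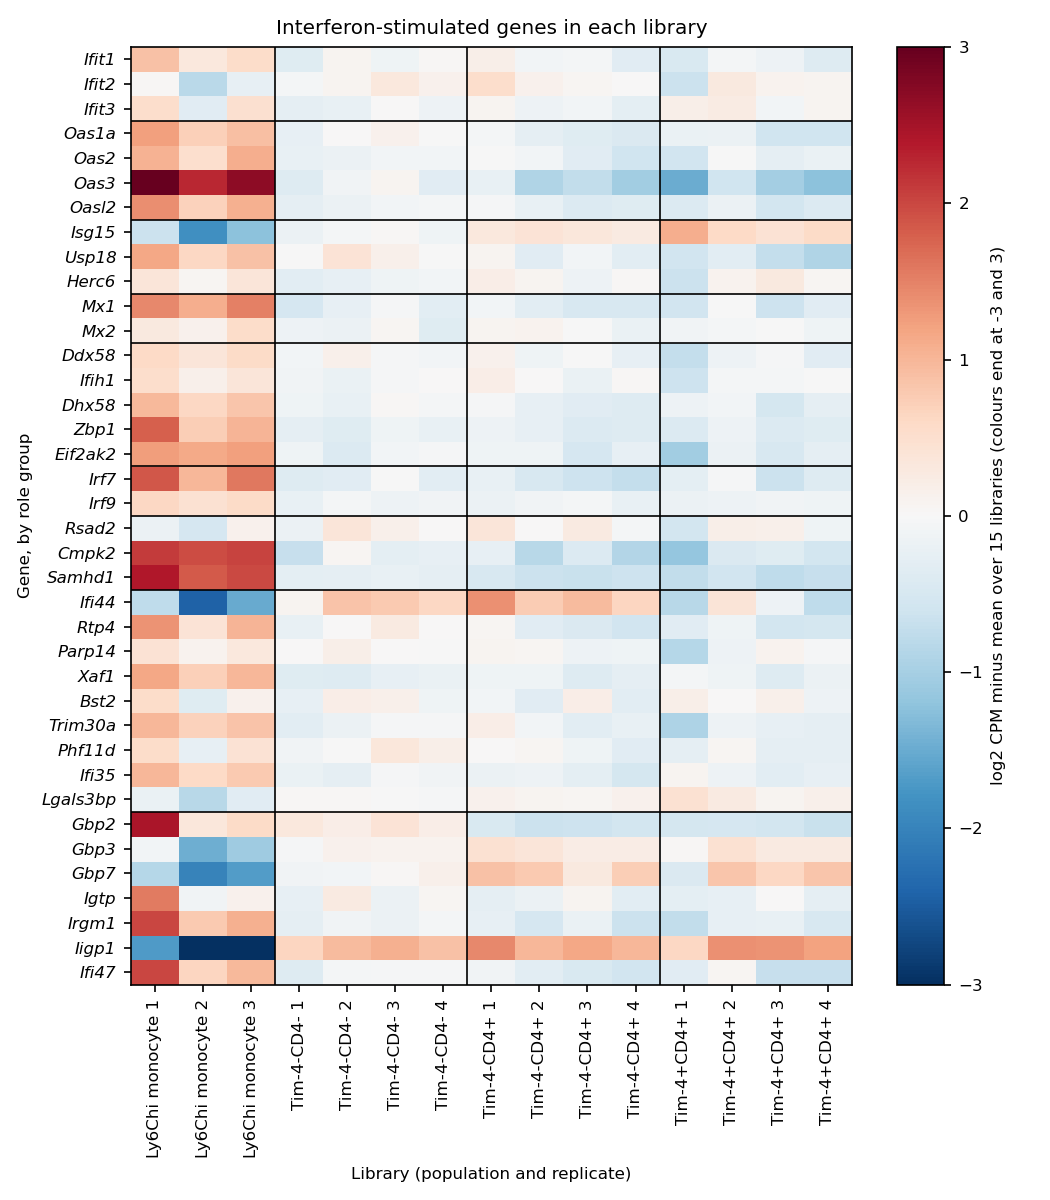
Level of the 38 genes (rows, by role) in the 15 libraries (columns, by population and replicate), as log2 CPM minus the gene's mean over all libraries; the colours end at -3 and 3. Most rows are red in the 3 monocyte columns, and Isg15, Ifi44, Lgals3bp, Gbp3, Gbp7, and Iigp1 are blue there, with the palest cells in monocyte replicate 1.

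Per kilobase of transcript, the order of the genes differed between blood and gut. In monocytes, Samhd1, an enzyme that depletes deoxynucleotides, led at 745 CPM per kb, followed by Irf7 (225) and Lgals3bp (174), and Herc6 (8.35), Ifi44 (2.15), and Iigp1 (1.00) came last (means of 3 libraries). Across the 12 macrophage libraries, Lgals3bp, a secreted glycoprotein, was first at 255 CPM per kb, ahead of Isg15 (205) and Samhd1 (122), and Mx2 (7.13), Herc6 (6.69), and Cmpk2 (5.97) were last. Isg15 was thus 12th of 38 in monocytes and 2nd in macrophages, and Oas3 was 8th in monocytes and 34th in macrophages.

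The promoters of 7 genes are shown because they carry the main contrasts: Isg15, Gbp7, and Gbp3 rose in the gut, Oas3 and Gbp2 fell, and Cmpk2 fell while its neighbor Rsad2 was not called. Sequences are from RefSeq on GRCm38.p6, read 5′ to 3′ along the gene, and end at the base before the annotated start, except for Gbp2, of which 30 bases are given. The start used for Gbp7 was not that of any basic GENCODE M21 transcript, so the exact place of its letters relative to the true start is uncertain. The GENCODE gene of Gbp7 begins at 142530342, a few bases after the printed end. That of Gbp2 begins at 142620602, within the printed bases and before the capitals, so its marked letters may lie in transcribed sequence. Those of Gbp3, Cmpk2, and Oas3 begin at 142560026, 26469204, and 120777661, so their last printed bases also lie within the annotated gene. The capitals of Gbp3 and Oas3 come before these places. Capitals mark paired GAAA, which is GAAA, any 2 bases, and GAAA again on either strand, the core letters of an interferon-stimulated response element.
Isg15, chr4:156200819-156200968, minus strand: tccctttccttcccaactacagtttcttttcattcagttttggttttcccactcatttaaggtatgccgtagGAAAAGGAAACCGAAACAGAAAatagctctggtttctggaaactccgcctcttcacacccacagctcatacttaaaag
Gbp7, chr3:142530186-142530335, plus strand: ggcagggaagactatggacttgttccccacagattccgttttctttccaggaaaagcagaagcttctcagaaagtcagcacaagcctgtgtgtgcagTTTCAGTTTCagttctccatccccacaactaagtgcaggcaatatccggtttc
Gbp3, chr3:142559894-142560043, plus strand: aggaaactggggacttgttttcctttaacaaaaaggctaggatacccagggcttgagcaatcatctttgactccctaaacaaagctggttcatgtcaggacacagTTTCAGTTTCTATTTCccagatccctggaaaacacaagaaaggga
Gbp2, chr3:142620594-142620623, plus strand: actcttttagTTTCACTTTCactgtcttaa
Oas3, chr5:120777660-120777809, minus strand: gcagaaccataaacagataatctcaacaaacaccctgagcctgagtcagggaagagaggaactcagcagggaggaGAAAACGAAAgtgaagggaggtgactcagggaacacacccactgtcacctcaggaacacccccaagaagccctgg
Rsad2, chr12:26456453-26456602, minus strand: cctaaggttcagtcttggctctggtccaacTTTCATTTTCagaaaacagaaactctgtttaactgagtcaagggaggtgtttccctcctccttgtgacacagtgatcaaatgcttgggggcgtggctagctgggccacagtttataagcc
Cmpk2, chr12:26469065-26469214, plus strand: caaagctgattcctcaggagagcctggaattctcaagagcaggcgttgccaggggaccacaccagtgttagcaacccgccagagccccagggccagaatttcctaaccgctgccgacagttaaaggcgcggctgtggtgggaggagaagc

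Of the 38 genes, 29 were in the promoter table, with 33 windows that each ran from 250 bases before to 50 bases after a start. Paired GAAA was found on either strand in 17 of these 33 windows (51.5%) and in 3.44% of all 32851 windows, and TTCNNNGAA, the letters of a gamma-activated site, in 8 of 33 (24.2%) and in 8.3% of all windows, counting matches that overlap. Isg15 held 3 overlapping copies of paired GAAA, the first beginning 78 bases before the start, Gbp3 held 2, and Gbp7, Gbp2, Oas3, and Rsad2 held 1 each in the windows searched. Of the genes lower in all 3 subsets, 11 of 20 windows (55%) held paired GAAA, and of those higher in all 3, 3 of 6 (50%) did, so genes of both directions had these letters. A match describes the sequence and is not a measured binding site.

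The 2'-5'-oligoadenylate synthetase genes, whose products sense double-stranded RNA and make a short oligonucleotide signal that leads to RNA decay, were lower in every subset, with 4 of 4 called in each comparison with monocytes. Oas3 fell the most of all 38 genes and was at 511, 295, and 396 CPM in monocytes, 47.5, 57.5, 65.2, and 48.7 CPM in Tim-4-CD4- macrophages, 52.6, 33.1, 36.7, and 29.9 CPM in Tim-4-CD4+ macrophages, and 22.1, 40.8, 30.5, and 26.2 CPM in Tim-4+CD4+ macrophages. No macrophage library came near the lowest monocyte library. The log2 fold changes against monocytes in Tim-4-CD4- cells, Tim-4-CD4+ cells, and Tim-4+CD4+ macrophages, the order used below, were -2.87 ± 0.23, -3.40 ± 0.23, and -3.74 ± 0.24 (SE, adjusted p from 4.1e-10 to 1.1e-08). Oas1a, Oas2, and Oasl2 had smaller falls, with log2 fold changes from -1.22 to -0.99 in Tim-4-CD4-, -1.33 to -1.14 in Tim-4-CD4+, and -1.46 to -1.15 in Tim-4+CD4+ macrophages.

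Genes that act on nucleotides were next. Samhd1 (GRCm38, chr2:157097533-157135265, minus strand), first among the 38 in monocytes per kilobase, was at 3612, 2455, and 2704 CPM in monocytes, 558, 568, 585, and 563 CPM in Tim-4-CD4- macrophages, 487, 435, 428, and 446 CPM in Tim-4-CD4+ macrophages, and 408, 456, 404, and 423 CPM in Tim-4+CD4+ macrophages. The populations of blood and gut did not overlap, and the log2 fold changes were -2.36 ± 0.11, -2.70 ± 0.11, and -2.79 ± 0.11 (SE, adjusted p from 9.8e-13 to 1e-11). Cmpk2 and Rsad2 lie side by side on chromosome 12 and are both known to be induced by type I interferon, Cmpk2 as a nucleotide kinase and Rsad2 (viperin) as an enzyme that makes a chain-terminating nucleotide. Cmpk2 was at 113, 102, and 109 CPM in monocytes, 16.4, 27.4, 21.5, and 22.2 CPM in Tim-4-CD4- macrophages, 22.4, 14.9, 20.1, and 14.4 CPM in Tim-4-CD4+ macrophages, and 11.9, 19.7, 20.6, and 18 CPM in Tim-4+CD4+ macrophages. For Cmpk2, the log2 fold changes were -2.30 ± 0.20, -2.59 ± 0.20, and -2.63 ± 0.20 (SE, adjusted p from 3.8e-09 to 2.4e-08). Rsad2 was at 70.5, 56.0, and 87.6 CPM in monocytes, 70.6, 103, 88.2, and 80.8 CPM in Tim-4-CD4- macrophages, 102, 80.9, 95.8, and 76.7 CPM in Tim-4-CD4+ macrophages, and 54.3, 90.2, 89.2, and 73.5 CPM in Tim-4+CD4+ macrophages. Its monocyte and macrophage libraries overlapped, and the log2 fold changes were 0.26 ± 0.18, 0.32 ± 0.18, and 0.11 ± 0.18 (SE, adjusted p from 0.13 to 0.62), none past the threshold. Without monocyte replicate 3 the second was called, at 0.52 (adjusted p = 0.03). Across the gut libraries the pair varied together, with a Pearson correlation of 0.96 between their deviations from subset means over the 12 macrophage libraries. Genes on different chromosomes reached like values, such as Ifit2 and Trim30a (0.974), and the median over all pairs of the 38 genes was 0.406. These values share each library's depth and the length pattern described below. The difference between the genes in their change from monocytes was not tested directly.

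Of the 2 transcription factors, Irf7, which amplifies type I interferon production, was at 637, 349.7, and 526 CPM in monocytes, 135, 138, 174, and 139.9 CPM in Tim-4-CD4- macrophages, 151, 125, 114, and 107 CPM in Tim-4-CD4+ macrophages, and 143, 172, 112, and 134 CPM in Tim-4+CD4+ macrophages. For Irf7, the log2 fold changes were -1.78 ± 0.18, -2.02 ± 0.18, and -1.85 ± 0.18 (SE, adjusted p from 4.4e-08 to 2.3e-07). Every macrophage library was below every monocyte library. Irf9, the DNA-binding partner of Stat2, was at 198, 178, and 191 CPM in monocytes, 111, 123, 117, and 119.9 CPM in Tim-4-CD4- macrophages, 115, 121, 124, and 110.4 CPM in Tim-4-CD4+ macrophages, and 114, 117, 119.9, and 119 CPM in Tim-4+CD4+ macrophages. Its libraries were close together within each population, and it fell by less, with log2 fold changes of -0.68 ± 0.07, -0.69 ± 0.07, and -0.69 ± 0.07 (SE, adjusted p from 3.8e-07 to 5e-07). The Mx GTPases block early steps of viral replication, although C57BL/6 mice are known to carry defective copies. Mx1 was at 132, 102, and 137 CPM in monocytes, 33.8, 40.5, 46.9, and 39.1 CPM in Tim-4-CD4- macrophages, 45.5, 38.6, 34.8, and 34.7 CPM in Tim-4-CD4+ macrophages, and 32.3, 47.7, 31.2, and 38.2 CPM in Tim-4+CD4+ macrophages. For Mx1, the log2 fold changes were -1.63 ± 0.15, -1.69 ± 0.15, and -1.73 ± 0.15 (SE, adjusted p from 3.6e-08 to 9.7e-08). Mx2 was at 22.2, 19.8, and 26.8 CPM in monocytes, 16.2, 16.2, 18.8, and 14.1 CPM in Tim-4-CD4- macrophages, 19.2, 19.6, 17.9, and 15.9 CPM in Tim-4-CD4+ macrophages, and 16.8, 17.5, 17.9, and 16.6 CPM in Tim-4+CD4+ macrophages. Its lowest monocyte library was close to the highest macrophage libraries, and it changed less, by -0.49 ± 0.12, -0.33 ± 0.12, and -0.41 ± 0.12 (SE, adjusted p from 0.0016 to 0.017). Without monocyte replicate 3 the values in the CD4+ subsets were -0.18 (adjusted p = 0.2) and -0.26 (adjusted p = 0.07), and without Tim-4-CD4+ replicate 4 that of Tim-4-CD4+ macrophages was -0.26 (adjusted p = 0.072).

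All 5 sensors of foreign nucleic acid were lower in each subset. They were Ddx58 (RIG-I) and Ifih1 (MDA5), which detect viral RNA, Dhx58 (LGP2), which tunes both, Zbp1, which binds Z-form nucleic acid and can start necroptosis, and Eif2ak2 (PKR), which halts translation on double-stranded RNA. Log2 fold changes ran from -1.50 to -0.43, from -1.55 to -0.34, and from -1.66 to -0.53 in the 3 subsets. Eif2ak2 was even among monocytes, at 174, 159.5, and 170 CPM, and ran from 35.4 to 70.3 CPM in macrophages. Zbp1 was at 442, 214, and 259 CPM in monocytes and from 95.4 to 116 CPM in macrophages. Neither gene overlapped between blood and gut. Ifih1 was at 181, 139, and 161 CPM in monocytes and from 81.0 to 144 CPM in macrophages, which overlapped, and its fall in Tim-4-CD4- macrophages, -0.43 ± 0.14 (SE, adjusted p = 0.011), was -0.31 (adjusted p = 0.078) without monocyte replicate 1. Its fall in Tim-4-CD4+ macrophages, -0.34 ± 0.14 (SE, adjusted p = 0.039), was -0.21 (adjusted p = 0.22) without that library. The second call was also lost without monocyte replicate 3, Tim-4-CD4- replicate 1, 3, or 4, or Tim-4-CD4+ replicate 2, 3, or 4 (adjusted p from 0.051 to 0.12), with DESeq2 (adjusted p = 0.068), and with another scaling (adjusted p = 0.063). Of the genes upstream of interferon that are not among the 38, on a list of 18 sensors and adaptors, 4, 6, and 5 were higher and 5, 8, and 9 lower in the 3 subsets, where 37.3% to 39.5% of all genes were higher and 28.1% to 31.3% lower. The largest rise among them was that of Tlr3, the endosomal receptor for double-stranded RNA, at 2.47 ± 0.18, 2.60 ± 0.18, and 2.47 ± 0.18 (SE, adjusted p from 1.7e-09 to 3.7e-09), and the largest fall that of Ticam2, an adaptor of Tlr4, at -1.81 ± 0.14, -2.45 ± 0.14, and -2.64 ± 0.14 (SE, adjusted p from 4.6e-11 to 6e-09). Next came Unc93b1, which carries receptors such as Tlr3 to endosomes, at 0.95 ± 0.10, 0.99 ± 0.10, and 1.10 ± 0.10 (SE, adjusted p from 7.6e-08 to 5.1e-07), and Myd88, the adaptor of most Toll-like receptors, at -0.85 ± 0.11, -1.09 ± 0.11, and -1.08 ± 0.11 (SE, adjusted p from 2.6e-07 to 5.2e-06).

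The ISG15 system split. Isg15, a ubiquitin-like protein that is attached to other proteins, was higher in every macrophage subset than in monocytes. It was at 77.2, 34.0, and 51.8 CPM in monocytes, 107, 117, 124, and 111 CPM in Tim-4-CD4- macrophages, 151, 163, 154, and 145 CPM in Tim-4-CD4+ macrophages, and 259, 185, 164, and 181 CPM in Tim-4+CD4+ macrophages. No 2 populations overlapped. The log2 fold changes against monocytes were 1.08 ± 0.21, 1.49 ± 0.21, and 1.86 ± 0.21 (SE, adjusted p from 6.8e-07 to 0.00022). Usp18, the protease that removes Isg15 from proteins and also restrains the type I interferon receptor, had population means in the opposite order. Usp18 (GRCm38, chr6:121245906-121270917, plus strand) was at 60.8, 41.5, and 49.9 CPM in monocytes, 26.9, 36.4, 30.1, and 26.9 CPM in Tim-4-CD4- macrophages, 28.7, 21.4, 25.6, and 21.8 CPM in Tim-4-CD4+ macrophages, and 18.3, 21.8, 16.5, and 14.5 CPM in Tim-4+CD4+ macrophages. All macrophage libraries were below the monocyte libraries, with log2 fold changes of -0.75 ± 0.16, -1.06 ± 0.16, and -1.51 ± 0.16 (SE, adjusted p from 2.6e-07 to 0.00053). Herc6, the main ligase for Isg15 in mice, was at 42.3, 34.5, and 42.6 CPM in monocytes, 26.4, 27.8, 30.1, and 31.4 CPM in Tim-4-CD4- macrophages, 37.5, 34.7, 29.7, and 33.7 CPM in Tim-4-CD4+ macrophages, and 21.2, 35.7, 40.1, and 34.3 CPM in Tim-4+CD4+ macrophages. It was lower than in monocytes in Tim-4-CD4- macrophages, at -0.46 ± 0.16 (SE, adjusted p = 0.019), and -0.39 (adjusted p = 0.074) without monocyte replicate 1. The call was also lost without monocyte replicate 3 (adjusted p = 0.075) or Tim-4-CD4- replicate 1 (adjusted p = 0.054). Its values in the CD4+ subsets, Tim-4- first, were -0.23 ± 0.16 (SE, adjusted p = 0.21) and -0.28 ± 0.16 (SE, adjusted p = 0.13).

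**Figure D2:**
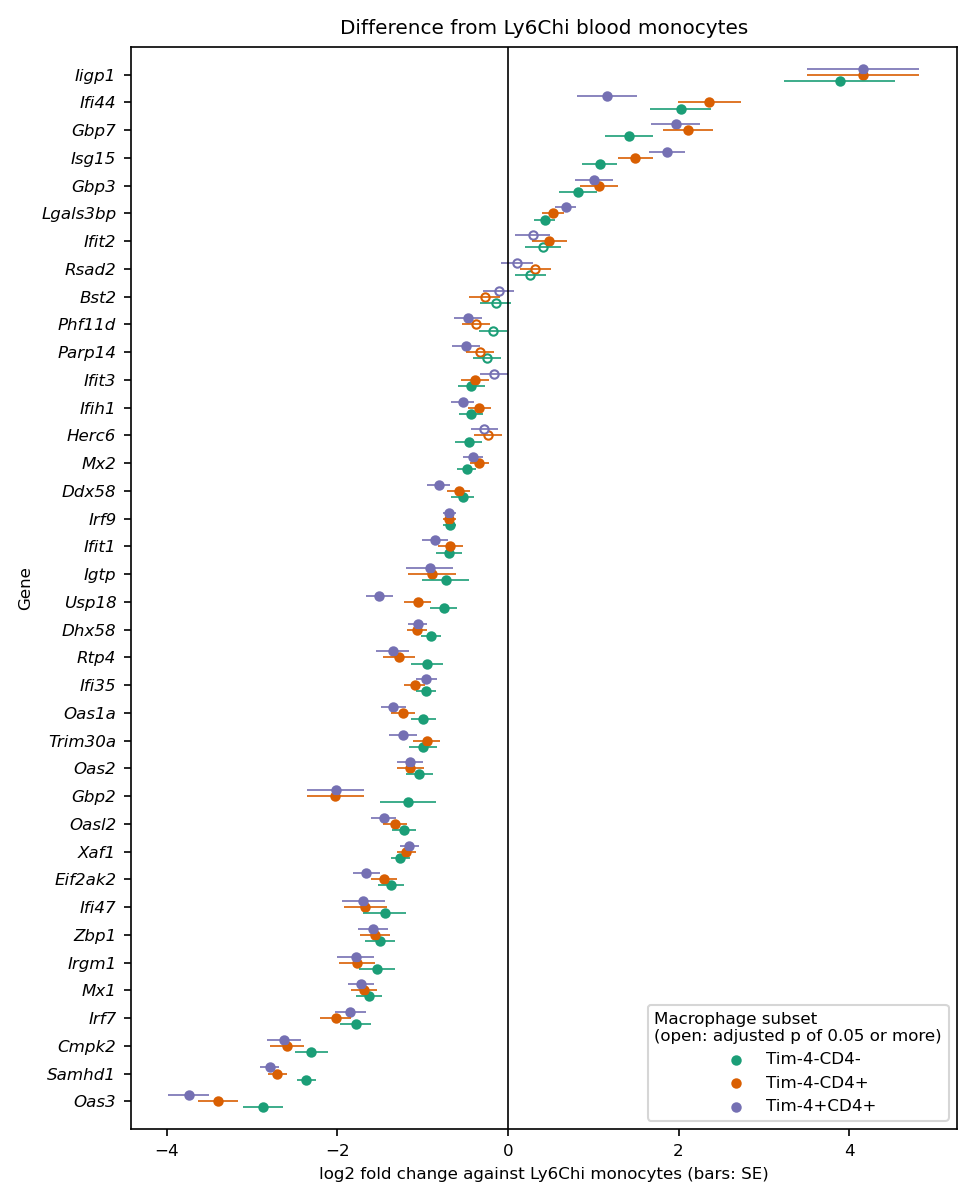
Log2 fold change of each of the 38 genes in the 3 macrophage subsets against Ly6Chi monocytes (edgeR, n = 4 against 3), with bars of 1 SE and open points where the adjusted p was 0.05 or more. Genes are ordered by the change in Tim-4-CD4- macrophages, from Oas3 at -2.87 to Iigp1 at 3.89, and the 3 subsets lie close together for most genes.

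Of 9 other genes typical of type I interferon, 2 rose in each subset and 4, 4, and 6 fell. Ifi44 (GRCm38, chr3:151730922-151749960, minus strand), a cytoplasmic protein of uncertain function, was at 9.85, 3.08, and 5.85 CPM in monocytes, 17.7, 30.3, 28.6, and 25.9 CPM in Tim-4-CD4- macrophages, 43.2, 28.2, 32.1, and 26.0 CPM in Tim-4-CD4+ macrophages, and 9.31, 21.9, 15, and 9.87 CPM in Tim-4+CD4+ macrophages. Its Tim-4+CD4+ libraries overlapped with those of monocytes, and those of the other subsets did not. The log2 fold changes were 2.02 ± 0.36, 2.36 ± 0.36, and 1.16 ± 0.35 (SE, adjusted p from 2.4e-05 to 0.0072). Lgals3bp was at 476, 307, and 435 CPM in monocytes, 561, 559, 543, and 530 CPM in Tim-4-CD4- macrophages, 596, 582, 569, and 596 CPM in Tim-4-CD4+ macrophages, and 750, 661, 583, and 606 CPM in Tim-4+CD4+ macrophages. Every macrophage library was above every monocyte library. For Lgals3bp, the log2 fold changes were 0.43 ± 0.12, 0.53 ± 0.12, and 0.68 ± 0.12 (SE, adjusted p from 0.00013 to 0.0057). Bst2 (tetherin), which holds budding virions at the cell surface, was at 115, 60.9, and 85.3 CPM in monocytes, 66.3, 90.3, 87.3, and 71.9 CPM in Tim-4-CD4- macrophages, 74.1, 61.9, 89.9, and 62.4 CPM in Tim-4-CD4+ macrophages, and 88.3, 79.0, 86.1, and 70.5 CPM in Tim-4+CD4+ macrophages. All 4 populations overlapped, and the values were -0.14 ± 0.18, -0.27 ± 0.18, and -0.11 ± 0.18 (SE, adjusted p from 0.19 to 0.62), none past the threshold. Without monocyte replicate 2 the second was called, at -0.45 (adjusted p = 0.033). Xaf1, which opposes the apoptosis inhibitor XIAP, Trim30a, of the TRIM family of ubiquitin ligases, Rtp4, and Ifi35 fell in every subset, with log2 fold changes from -1.26 to -0.95, from -1.28 to -0.95, and from -1.35 to -0.96. Parp14, an ADP-ribosyltransferase, and Phf11d passed the threshold in Tim-4+CD4+ macrophages, at -0.49 ± 0.16 (SE, adjusted p = 0.013) and -0.46 ± 0.17 (SE, adjusted p = 0.019), and not in the other subsets. Without monocyte replicate 1 these were at -0.39 (adjusted p = 0.068) and -0.28 (adjusted p = 0.18). Which subsets passed turned on single libraries. Without Tim-4+CD4+ replicate 1, Parp14 was also called in the other subsets, CD4- first, at -0.23 (adjusted p = 0.042) and -0.31 (adjusted p = 0.0077). Without monocyte replicate 2, Phf11d was called in the same subsets, at -0.36 (adjusted p = 0.037) and -0.56 (adjusted p = 0.0026). With only Tim-4+CD4+ macrophages and monocytes fitted, neither gene was called (adjusted p = 0.063 and 0.059), and Phf11d was also lost without monocyte replicate 3 or Tim-4+CD4+ replicate 3 (adjusted p = 0.11 and 0.055). Neither gene passed in a comparison between subsets, so a difference of these falls from those in the other subsets was not shown.

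The IFIT genes, whose products bind viral RNA that lacks host cap marks, lie together on chromosome 19 and differed in their change. Ifit1 fell, from 51.3, 34.9, and 40.7 CPM in monocytes to between 20.2 and 31.2 CPM in macrophages. For Ifit1, the log2 fold changes were -0.69 ± 0.15, -0.68 ± 0.15, and -0.86 ± 0.15 (SE, adjusted p from 8e-05 to 0.00077). Ifit3 was at 109, 59.8, and 106 CPM in monocytes and from 61.2 to 89.5 CPM in macrophages. The values of Ifit3 were -0.43 ± 0.16, -0.39 ± 0.16, and -0.17 ± 0.16 (SE, adjusted p from 0.028 to 0.37), with the first 2 past the threshold. Without monocyte replicate 1 those 2 were -0.26 (adjusted p = 0.21) and -0.21 (adjusted p = 0.3). The first was also lost without monocyte replicate 3 or Tim-4-CD4- replicate 1, 2, or 4 (adjusted p from 0.058 to 0.18), and the second without any 1 library other than monocyte replicate 2 and Tim-4-CD4+ replicate 1, with adjusted p of 0.052 without Tim-4+CD4+ replicate 1. The third was called without monocyte replicate 2, at -0.36 (adjusted p = 0.014). Ifit2 was at 129.5, 71.8, and 106 CPM in monocytes and from 80.0 to 179.9 CPM in macrophages. Its values were 0.41 ± 0.21, 0.49 ± 0.21, and 0.29 ± 0.21 (SE, adjusted p from 0.048 to 0.22). It passed in Tim-4-CD4+ macrophages. That call was lost without monocyte replicate 2, at 0.31 (adjusted p = 0.19), and without monocyte replicate 3, Tim-4-CD4+ replicate 1 or 2, or Tim-4+CD4+ replicate 4 (adjusted p from 0.052 to 0.12). In the other subsets, Tim-4-CD4- first, Ifit2 was called without monocyte replicate 1, at 0.64 (adjusted p = 0.022) and 0.52 (adjusted p = 0.049), and without Tim-4+CD4+ replicate 1, at 0.43 (adjusted p = 0.031) and 0.47 (adjusted p = 0.024).

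Of the 7 GTPases typical of interferon gamma, 3 rose and 4 fell in each subset. Gbp7, Gbp3, and Gbp2 lie in 1 cluster on chromosome 3 and encode guanylate-binding proteins, which coat the vacuoles of microbes. Gbp7 was at 140.2, 63.5, and 79.0 CPM in monocytes, 233, 239, 259, and 279 CPM in Tim-4-CD4- macrophages, 462, 435, 311, and 420.5 CPM in Tim-4-CD4+ macrophages, and 187, 450.2, 391, and 449 CPM in Tim-4+CD4+ macrophages. Gbp7 rose, with log2 fold changes of 1.42 ± 0.28, 2.11 ± 0.29, and 1.97 ± 0.29 (SE, adjusted p from 6.7e-06 to 0.00032). Gbp3 was at 244, 93.2, and 123 CPM in monocytes, 251, 279, 278, and 277 CPM in Tim-4-CD4- macrophages, 354, 330.1, 302, and 300.2 CPM in Tim-4-CD4+ macrophages, and 265, 354, 308, and 309.7 CPM in Tim-4+CD4+ macrophages. All macrophage libraries were above all monocyte libraries, with log2 fold changes of 0.82 ± 0.22, 1.07 ± 0.22, and 1.01 ± 0.22 (SE, adjusted p from 0.00047 to 0.0039), and monocyte replicate 1 came close to the lowest macrophage library. Gbp2 was at 327, 75.5, and 88.8 CPM in monocytes, 74.6, 69.0, 79.2, and 68.5 CPM in Tim-4-CD4- macrophages, 43.4, 38.4, 38.9, and 40.7 CPM in Tim-4-CD4+ macrophages, and 41.4, 42.1, 40.6, and 37.6 CPM in Tim-4+CD4+ macrophages. A single monocyte library stood far above the other two, of which replicate 2 lay within the range of Tim-4-CD4- macrophages and both lay above the CD4+ subsets. The values of Gbp2 were -1.17 ± 0.33, -2.02 ± 0.34, and -2.02 ± 0.34 (SE, adjusted p from 4.9e-05 to 0.0054), and without monocyte replicate 1 they were -0.15 (adjusted p = 0.19), -1.0 (adjusted p = 1.8e-07), and -0.99 (adjusted p = 1.7e-07). The fall in Tim-4-CD4- macrophages was therefore called only with that library, and the falls in the CD4+ subsets were called with and without it.

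The immunity-related GTPases, which attack vacuoles of intracellular parasites and bacteria, also divided. Iigp1 (Irga6) had the largest rise of the 38 genes, at 8.12, 0.389, and 0.855 CPM in monocytes, 41.4, 50.7, 54.8, and 48.4 CPM in Tim-4-CD4- macrophages, 71.7, 52.6, 58.8, and 52.7 CPM in Tim-4-CD4+ macrophages, and 40.6, 68.5, 66.5, and 61.0 CPM in Tim-4+CD4+ macrophages. Monocyte replicate 1 was far above replicates 2 and 3, and all macrophage libraries were far above all monocyte libraries. Its log2 fold changes were 3.89 ± 0.65, 4.16 ± 0.66, and 4.17 ± 0.66 (SE, adjusted p from 2.8e-05 to 6.1e-05), and without monocyte replicate 1 they were 6.42 (adjusted p = 1.3e-10), 6.70 (adjusted p = 6.8e-11), and 6.70 (adjusted p = 6.1e-11). Irgm1, a regulator of the other members, was at 280.2, 120.4, and 147 CPM in monocytes and from 42.3 to 66.9 CPM in macrophages. Ifi47 (Irgd) was at 228, 89.0, and 112 CPM and from 35.7 to 59.5 CPM. Irgm1 fell by log2 fold changes of -1.53 ± 0.22, -1.77 ± 0.22, and -1.78 ± 0.22 (SE, adjusted p from 1.4e-06 to 9.6e-06), and Ifi47 by -1.44 ± 0.25, -1.68 ± 0.25, and -1.70 ± 0.25 (SE, adjusted p from 1.5e-05 to 9.7e-05). Igtp (Irgm3) was at 153, 48.7, and 57.0 CPM in monocytes and from 41.9 to 63.3 CPM in macrophages. Its values were -0.73 ± 0.28, -0.89 ± 0.28, and -0.92 ± 0.28 (SE, adjusted p from 0.0073 to 0.03). Without monocyte replicate 1 they were 0.0035 (adjusted p = 0.99), -0.15 (adjusted p = 0.41), and -0.18 (adjusted p = 0.31), so that all 3 calls for Igtp rested on that library. The first was also lost without Tim-4-CD4- replicate 1 or 3 (adjusted p = 0.081 and 0.073), with DESeq2 (adjusted p = 0.067), and with only the populations compared in the fit (adjusted p = 0.089).

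The monocyte libraries differed from each other across the whole set. Monocyte replicate 1 was the highest of the 3 for 33 of the 38 genes, 7 of 7 GTPases among them, while it was the highest for 39.1% of all tested genes. Replicate 2, from 4 mice, was the lowest for 38 of 38, beside 28.8% of all genes. The median log2 difference from the other monocyte libraries was 0.45 for replicate 1, -0.56 for replicate 2, and 0.02 for replicate 3, beside 0.01, 0.00, and -0.03 over all genes. For the 7 GTPases alone it was 1.19, -0.89, and -0.35. The summed level of the 38 genes was 11140 CPM, 7085 CPM, and 8599 CPM in replicates 1 to 3. The monocyte marker list moved with it, at 8350 CPM, 5670 CPM, and 6430 CPM, while the total counts, at 139410518, 94153773, and 48739371, were in another order. T cell and NK cell genes summed to at most 0.446 and 0.418 CPM in monocyte libraries, and 3 neutrophil genes to 144 to 211 CPM, almost all of it Mmp8. The part of these in the difference between libraries was not tested. Among the 12 macrophage libraries, the medians against the rest of the subset lay between -0.20 and 0.27.

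**Figure D3:**
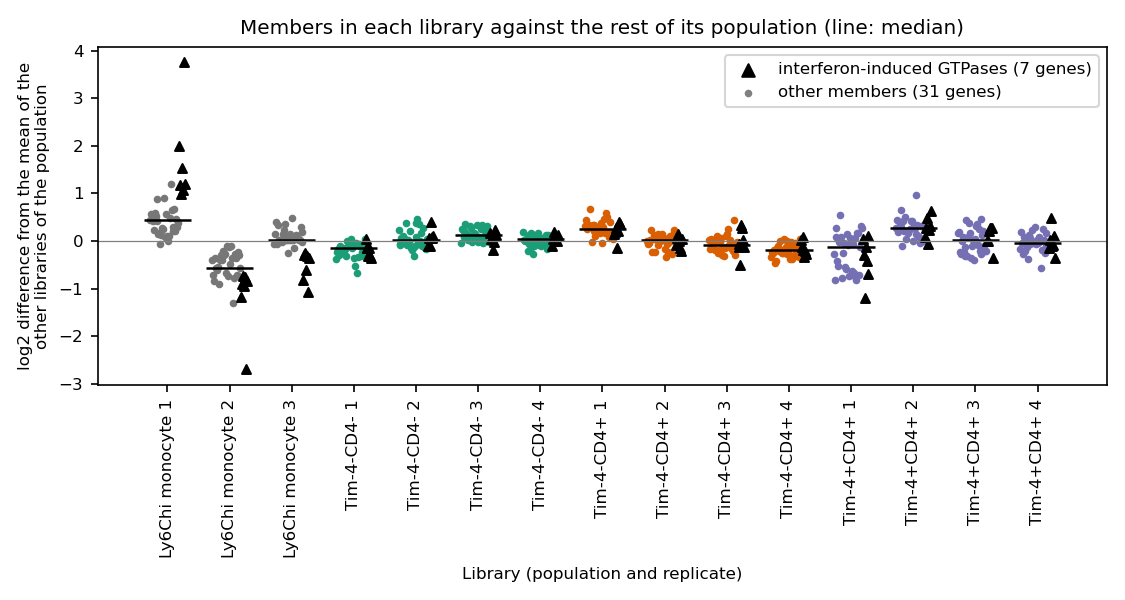
Log2 difference of each of the 38 genes from the mean of the other libraries of its population, for the 15 libraries (triangles for the 7 GTPases, dots for the other 31 genes, line at the median). Monocyte replicate 1 lies above 0 with a median of 0.45, monocyte replicate 2 lies below 0 with a median of -0.56, and the GTPases are the farthest out in replicate 1.

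Between macrophage subsets, few of the 38 genes differed. Against Tim-4-CD4- macrophages, the Tim-4-CD4+ subset differed in 1 of 38, Samhd1, where 10.1% of all genes were called (4.52% higher, 5.53% lower). Against the same subset, Tim-4+CD4+ macrophages differed in 4 of 38, with 1 higher and 3 lower, where 23.1% were called (11.3% higher, 11.9% lower). They differed from the Tim-4-CD4+ subset in 1 of 38, Ifi44, where 3.41% were called (2.07% higher, 1.34% lower). With a minimum change of 2-fold, 0, 0, and 1 of the 38 were called, beside 3.06%, 8.45%, and 1.75% of all genes. At an unadjusted p under 0.05, the counts were 5, 11, and 2, and DESeq2 called 2, 4, and 1. The shares over all genes at these settings are not given, so these counts cannot be read as few or many. The median log2 fold change over the 38 genes was -0.07, -0.16, and -0.05 in these 3 comparisons, beside -0.003, -0.005, and -0.002 over all genes. Compared with Tim-4-CD4- cells, Tim-4+CD4+ macrophages had more Isg15 by a log2 fold change of 0.78 ± 0.19 (SE, adjusted p = 0.0055), and Oas3, Usp18, and Samhd1 were lower, at -0.87 ± 0.21 (SE, adjusted p = 0.0061), -0.76 ± 0.15 (SE, adjusted p = 0.0013), and -0.43 ± 0.10 (SE, adjusted p = 0.0053). All 4 of these had no overlap between the 2 subsets, where 12.5% of all genes were higher and 13.8% lower without overlap, and Tim-4-CD4+ macrophages lay in between in their means. The steps to and from Tim-4-CD4+ were smaller. For Isg15 they were 0.41 ± 0.18 (SE, adjusted p = 0.19) and 0.37 ± 0.18 (SE, adjusted p = 0.38), for Usp18 -0.30 ± 0.15 (SE, adjusted p = 0.24) and -0.45 ± 0.15 (SE, adjusted p = 0.13), and for Oas3 -0.52 ± 0.21 (SE, adjusted p = 0.14) and -0.35 ± 0.21 (SE, adjusted p = 0.48). The first step of Oas3 was called without Tim-4-CD4+ replicate 1, at -0.72 (adjusted p = 0.042). That of Isg15 was called with only the populations compared in the fit, at 0.42 (adjusted p = 0.0016). Samhd1 was lower in Tim-4-CD4+ than in Tim-4-CD4- macrophages, at -0.34 ± 0.10 (SE, adjusted p = 0.042), with no overlap, and its second step was -0.09 ± 0.10 (SE, adjusted p = 0.73). The first call was lost without monocyte replicate 3, without any 1 of the Tim-4-CD4- libraries, without Tim-4-CD4+ replicate 2, 3, or 4, and without Tim-4+CD4+ replicate 2, 3, or 4, with adjusted p from 0.05 to 0.11. It was also lost without the filter on low counts (adjusted p = 0.073). Gbp2 had a larger difference that did not pass, at -0.85 ± 0.31 (SE, adjusted p = 0.1) in Tim-4-CD4+ and -0.85 ± 0.31 (SE, adjusted p = 0.061) in Tim-4+CD4+ against Tim-4-CD4- macrophages, although the libraries did not overlap. Without monocyte replicate 1, which enters the spread of the joint fit, these were -0.85 (adjusted p = 5.7e-06) and -0.84 (adjusted p = 1.6e-06). Both were also called without monocyte replicate 2 (adjusted p = 0.042 and 0.022) and with only the populations compared in the fit (adjusted p = 2.3e-05 and 6.1e-05). Without monocyte replicate 3 the second was called (adjusted p = 0.039). Gbp7 had values of 0.69 ± 0.25 (SE, adjusted p = 0.1) and 0.55 ± 0.25 (SE, adjusted p = 0.13), and without Tim-4+CD4+ replicate 1 they were 0.69 (adjusted p = 0.021) and 0.77 (adjusted p = 0.0099). Without monocyte replicate 1 the first was 0.69 (adjusted p = 0.045). Ifi44 was not called in Tim-4+CD4+ against Tim-4-CD4- macrophages, at -0.87 ± 0.31 (SE, adjusted p = 0.057), and was called without monocyte replicate 1, at -0.86 (adjusted p = 0.031), and without monocyte replicate 2, Tim-4-CD4- replicate 1, or Tim-4+CD4+ replicate 2 (adjusted p from 0.015 to 0.041).

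**Figure D4:**
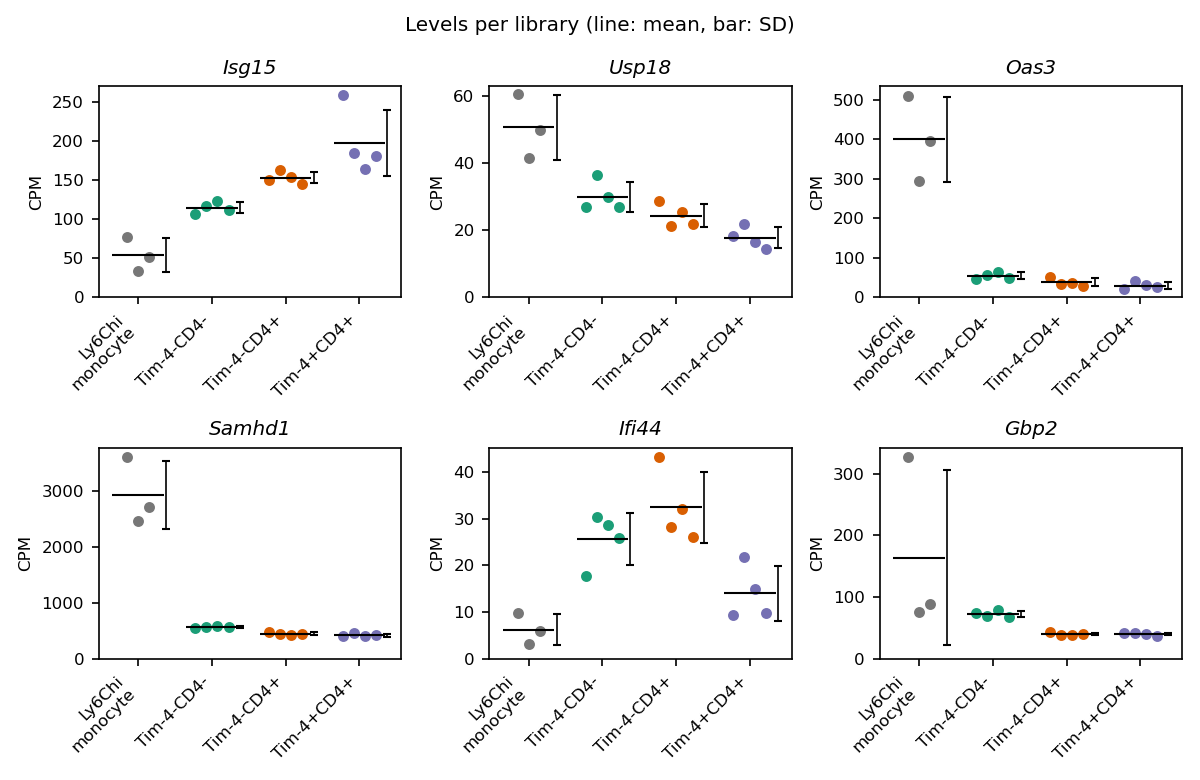
CPM of Isg15, Usp18, Oas3, Samhd1, Ifi44, and Gbp2 in each library of the 4 populations (points in replicate order, line at the mean, bar of 1 SD, axes from 0). Isg15 climbs from 34.0 to 77.2 CPM in monocytes to 164 to 259 CPM in Tim-4+CD4+ macrophages while Usp18 steps down, and Gbp2 shows the 1 monocyte library at 327 CPM.

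Tim-4+CD4+ replicate 1 was set apart from the other 3 libraries of its subset by transcript length. Over the 38 genes, the Spearman correlation between transcript length and the log2 difference of this library from the others was -0.823, and over 15782 genes it was -0.436. In the other 14 libraries it lay between -0.434 and 0.709 over the 38 genes, and values of libraries of 1 subset depend on each other. These correlations run across genes, which are not independent replicates. Short transcripts such as Isg15 (756 bases) were high in it, and long ones such as Parp14 (7417 bases), Gbp7 (5614 bases), and Ifih1 (5470 bases) were low. Isg15 in this library was at 259 CPM, beside 164 to 185 CPM in the others of the subset. Without it, Isg15 was still higher in Tim-4+CD4+ than in Tim-4-CD4- macrophages, at 0.63 (adjusted p = 0.016), and higher than in monocytes, at 1.72 (adjusted p = 9.2e-07). Usp18, Oas3, and Samhd1 were still lower, at -0.77 (adjusted p = 0.003), -0.74 (adjusted p = 0.019), and -0.41 (adjusted p = 0.012). The number of the 38 genes called between these subsets went from 4 to 7 without it, with Gbp7, Oas1a, and Herc6 added at 0.77 (adjusted p = 0.0099), -0.41 (adjusted p = 0.039), and 0.35 (adjusted p = 0.017). Ifi44 was lower in Tim-4+CD4+ than in Tim-4-CD4+ macrophages, at -1.21 ± 0.31 (SE, adjusted p = 0.044), with no overlap, and without this library at -1.04 (adjusted p = 0.13). That call was also lost without monocyte replicate 3, without Tim-4-CD4- replicate 2, 3, or 4, without any 1 of the Tim-4-CD4+ libraries, and without Tim-4+CD4+ replicate 3 or 4, with adjusted p from 0.054 to 0.15.

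**Figure D5:**
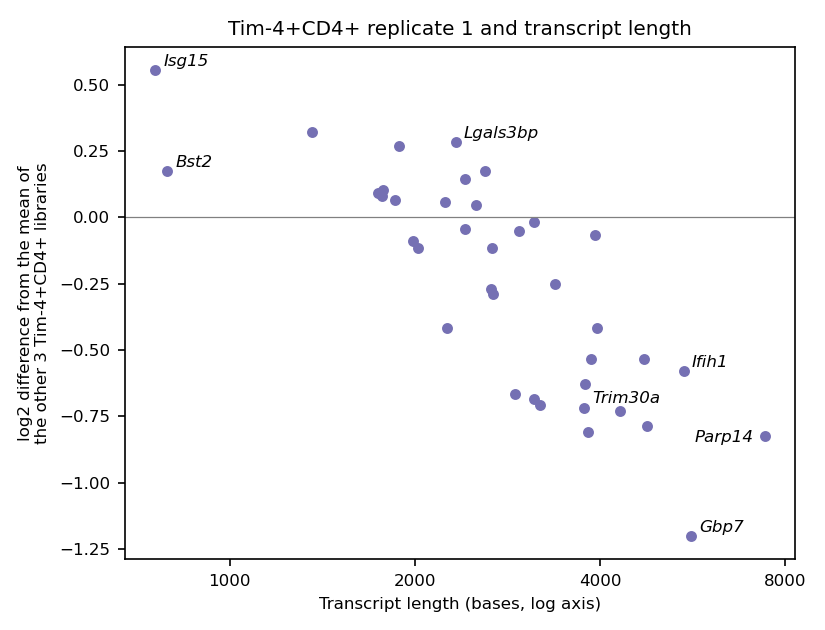
Log2 difference of Tim-4+CD4+ replicate 1 from the mean of the other 3 Tim-4+CD4+ libraries against transcript length in bases (log axis), 1 point for each of the 38 genes. The points fall from Isg15 at 756 bases, above 0, to Gbp7 and Parp14 at 5614 and 7417 bases, below 0 (Spearman correlation -0.823).

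Over the 12 macrophage libraries, the median Pearson correlation between deviations of 2 of the 38 genes from their subset means was 0.406 across 703 pairs of genes. It was highest for Ifit2 and Trim30a (0.974) and Ifih1 and Gbp7 (0.965) and lowest for Isg15 and Parp14 (-0.826), a short and a long transcript. All pairs share the same libraries, with their depth and the length pattern above.

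The genes around the response were taken from a list of 147, of which 127 were tested, and a gene could stand under several headings of it. Against monocytes, 27, 33, and 31 were higher and 58, 66, and 69 lower in the 3 subsets, and the counts on its parts given below stand beside 37.3%, 39.1%, and 39.5% of all genes higher and 28.1%, 30.7%, and 31.3% lower. Of 21 interferon genes listed, only 4 were in the count table and 2 were tested, so most could not be examined. The 2 tested were near the limit of detection. Ifnb1, the gene of interferon beta, had at most 1 read in any monocyte library and from 1 to 45 reads in macrophage libraries, and the adjusted p against monocytes was 0.014, 0.0095, and 0.0055. Between subsets it did not pass, with adjusted p from 0.76 to 0.94. Ifng, made mainly by T cells and NK cells, had at most 1 read in monocytes, at most 3 in Tim-4-CD4-, 7 to 30 in Tim-4-CD4+, and 3 to 28 in Tim-4+CD4+ libraries. It was called higher than in Tim-4-CD4- macrophages in both CD4+ subsets (adjusted p = 0.032 and 0.045). The T cell list summed to 2.25 to 5.91 CPM in Tim-4-CD4-, 6.32 to 9.63 CPM in Tim-4-CD4+, and 4.79 to 6.82 CPM in Tim-4+CD4+ libraries, and its part in the Ifng reads was not tested. At these counts folds are not given. A list of 6 genes of plasmacytoid dendritic cells, the cells best known for interferon alpha, summed to 90.2 to 108 CPM in monocytes and to 87.9 to 140 CPM in macrophage libraries, almost all of it Tcf4 (73.1 to 130.2 CPM), which many other cells express.

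Of 16 receptor and signaling genes, 3 rose and 8 fell in each subset against monocytes. Ifnar1 was at 201 ± 19.5 CPM in monocytes, 283 ± 18 CPM in Tim-4-CD4- macrophages, 251 ± 22.6 CPM in Tim-4-CD4+ macrophages, and 204 ± 22.6 CPM in Tim-4+CD4+ macrophages. Against monocytes, Ifnar1 had log2 fold changes of 0.49 ± 0.11, 0.32 ± 0.11, and 0.02 ± 0.11 (SE, adjusted p from 0.00069 to 0.87). In Tim-4+CD4+ macrophages, the subset with the highest Isg15, it did not pass against monocytes, and it was below Tim-4-CD4- macrophages, at -0.47 ± 0.10 (SE, adjusted p = 0.002). Ifnar2 fell slightly, with values of -0.18 ± 0.07, -0.40 ± 0.07, and -0.44 ± 0.07 (SE, adjusted p from 3.2e-05 to 0.036). Ifngr1, the ligand-binding chain of the interferon gamma receptor, fell, with means of 715 ± 25.1 CPM in monocytes, 265 ± 12.3 CPM in Tim-4-CD4- macrophages, 209.7 ± 15.7 CPM in Tim-4-CD4+ macrophages, and 194 ± 11.2 CPM in Tim-4+CD4+ macrophages and log2 fold changes of -1.43 ± 0.08, -1.77 ± 0.08, and -1.88 ± 0.08 (SE, adjusted p from 3.6e-12 to 1.6e-10). Ifngr2, its partner, had values of -0.23 ± 0.13, -0.19 ± 0.13, and -0.11 ± 0.13 (SE, adjusted p from 0.12 to 0.45), none past the threshold. Stat2 fell, at -1.09 ± 0.14, -0.93 ± 0.14, and -0.91 ± 0.14 (SE, adjusted p from 2.7e-06 to 1.8e-05). Irf8, a factor of monocyte and macrophage identity, had means of 435 ± 36.9 CPM in monocytes, 516 ± 36.4 CPM in Tim-4-CD4- macrophages, 639 ± 47.0 CPM in Tim-4-CD4+ macrophages, and 745 ± 38.2 CPM in Tim-4+CD4+ macrophages. It differed from monocytes by 0.24 ± 0.09, 0.55 ± 0.09, and 0.77 ± 0.09 (SE, adjusted p from 1.1e-06 to 0.025) and was higher in Tim-4+CD4+ than in Tim-4-CD4- macrophages at 0.53 ± 0.08 (SE, adjusted p = 0.00019). Irf1, induced by interferon gamma, was at 0.62 ± 0.26, 0.54 ± 0.26, and 0.69 ± 0.27 (SE, adjusted p from 0.029 to 0.08), past the threshold in Tim-4+CD4+ macrophages alone. The largest rise among the receptors was that of Il10rb, a chain shared by the receptors of interleukin 10 and interferon lambda, at 1.2 ± 0.08, 1.26 ± 0.08, and 1.18 ± 0.08 (SE, adjusted p from 5.6e-10 to 1.3e-09), and Irf5, a factor of inflammatory gene induction, fell, at -0.93 ± 0.09, -1.12 ± 0.09, and -1.11 ± 0.09 (SE, adjusted p from 1.3e-08 to 1.7e-07). On the list of 13 inhibitors, 4 rose in each subset and 3, 5, and 5 fell. Socs3, an inhibitor best known for interleukin 6 signaling, rose the most in Tim-4-CD4- macrophages, at 3.32 ± 0.14, 2.54 ± 0.13, and 2.41 ± 0.13 (SE, adjusted p from 1.7e-12 to 4.6e-11), and Stap2, an adaptor protein, rose as well, at 1.88 ± 0.51, 2.44 ± 0.52, and 4.23 ± 0.54 (SE, adjusted p from 3e-06 to 0.0042). The phosphatases Ptpn1 and Ptpn6 fell, at -1.70 ± 0.09, -1.97 ± 0.09, and -1.84 ± 0.09 (SE, adjusted p from 3.7e-12 to 2.8e-11) and -0.85 ± 0.09, -0.80 ± 0.09, and -0.72 ± 0.09 (SE, adjusted p from 1.9e-07 to 1.1e-06). Socs1, which blocks Jak kinases, had values of 0.96 ± 0.41, 0.80 ± 0.41, and 0.93 ± 0.41 (SE, adjusted p from 0.05 to 0.091), none past the threshold.

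Further induced genes not among the 38 came from a pair of lists. Of 54 tested genes of a list of other interferon-induced genes, 38, 39, and 42 were lower and 4, 6, and 5 were higher than in monocytes in the 3 subsets. The largest falls were those of Ifitm6 and Slfn4, a member of the Schlafen family, at -5.81 ± 0.29, -7.57 ± 0.32, and -7.74 ± 0.32 (SE, adjusted p from 1.6e-12 to 2.8e-11) and -5.17 ± 0.27, -5.99 ± 0.28, and -6.64 ± 0.29 (SE, adjusted p from 3.2e-12 to 4.7e-11). These are genes that monocytes are known to express at rest, and the part of this in their falls was not tested. Ifi27 rose, at 2.70 ± 0.14, 3.03 ± 0.14, and 3.22 ± 0.14 (SE, adjusted p from 3.8e-12 to 3.9e-11). Of 26 genes typical of interferon gamma, 11, 12, and 13 were higher and 4, 6, and 5 lower, beside 37.3% to 39.5% of all genes higher and 28.1% to 31.3% lower. Cxcl9, a chemokine that attracts T cells, was at 6.57 ± 4.78 CPM in monocytes, 213 ± 14.5 CPM in Tim-4-CD4- macrophages, 335 ± 41.7 CPM in Tim-4-CD4+ macrophages, and 295 ± 21.6 CPM in Tim-4+CD4+ macrophages. The changes of Cxcl9 were 4.99 ± 0.35, 5.65 ± 0.37, and 5.46 ± 0.36 (SE, adjusted p from 6e-10 to 2.3e-09). Gbp8, a further guanylate-binding protein, was at 2.39 ± 2.18 CPM in monocytes, 154 ± 6.19 CPM in Tim-4-CD4- macrophages, 268 ± 34.9 CPM in Tim-4-CD4+ macrophages, and 309 ± 19.5 CPM in Tim-4+CD4+ macrophages. It rose by log2 fold changes of 5.96 ± 0.44, 6.75 ± 0.45, and 6.96 ± 0.46 (SE, adjusted p from 6.4e-10 to 3.4e-09), and Cd274 (PD-L1) rose as well, at 4.90 ± 0.25, 5.43 ± 0.26, and 5.43 ± 0.26 (SE, adjusted p from 8.7e-12 to 3.2e-11). Nos2, the inducible nitric oxide synthase, was called higher in each subset but had at most 1 read in a monocyte library and from 2 to 68 reads in macrophage libraries, and no fold is given. Gvin1, a very large GTPase, had the largest fall on this list, at -1.67 ± 0.20, -1.79 ± 0.20, and -2.43 ± 0.20 (SE, adjusted p from 1.2e-08 to 1.3e-06), and Irgm2 fell like its relative Irgm1, at -1.06 ± 0.23, -0.98 ± 0.23, and -1.06 ± 0.23 (SE, adjusted p from 0.00065 to 0.0014). Between subsets, 18, 41, and 1 of the 127 genes were called in the 3 comparisons in the order above, beside 10.1%, 23.1%, and 3.41% of all genes, and 15, 29, and 0 of them were lower, beside 5.53%, 11.9%, and 1.34%. The 1 gene of the last comparison was Stap2, at 1.79 ± 0.43 (SE, adjusted p = 0.025). There 12 genes had an unadjusted p under 0.05, for which no share over all genes is given.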

How the data were processed

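RNA sequencing counts of 15 libraries were used. The authors trimmed reads with Trimmomatic 0.36, aligned them with STAR to GRCm38.p4, and took gene counts of uniquely mapped reads from HTSeq 0.6.1p1, and the deposited values used here are these raw counts (39388763 to 151510641 per library, median 63249039). The kit keeps strand, and the strand setting of the count was not given in the sources used here. No gene had fewer than 16 reads over all libraries, and 15 columns of the authors' normalized values were not used. Symbols were matched by Ensembl ID for 19421 of 19456 genes.

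All libraries were fitted together with edgeR 4.0.16 (R 4.3.3) by the quasi-likelihood test after its filter on low counts and TMM scaling, with Benjamini-Hochberg adjustment over 15802 genes and a threshold of 0.05, two-sided. The SE is that of the log2 fold change. The script was tested on simulated counts. Lengths are of the longest coding transcript (GENCODE M21), and log2 levels used a prior count of 2. Alternatives were DESeq2 1.42.0, another scaling, no filter, 2-population fits, replicate blocks, a 2-fold minimum, and leaving out each library.

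The 38 genes and all lists were chosen with earlier results of these data known. Every member was reported, by role. Values per library were given for the 3 members that changed most in each direction in each comparison, the 3 highest and the 3 lowest per kilobase, members called between subsets, and Irf7, Irf9, Isg15, Usp18, Bst2, and Lgals3bp, and other members were chosen for this after their values were seen. Of the pathway lists, 10 preset genes and, in each direction, the 2 called genes that changed most were named, and Cd274, Tcf4, and Ifng were added by their values or by cell type. Some of these genes are not reported here.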

Additional observations from a re-analysis of the deposited data

Results flagged for a closer look

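In groups of 4 libraries, a single library was far from the other 3 by Dixon's criterion in 8 of 114 cases, where chance gives about 1 in 20. In Tim-4+CD4+ macrophages, Ifih1 was at 81.0 CPM in replicate 1 (nearest library 120 CPM), Zbp1 at 115 CPM in replicate 2 (nearest 98.6 CPM), Phf11d at 35.8 CPM in replicate 2 (nearest 28.6 CPM), and Igtp at 52.6 CPM in replicate 3 (nearest 44.0 CPM). In Tim-4-CD4- macrophages, Irf7 was at 174 CPM in replicate 3 (nearest 139.9 CPM), Parp14 at 416 CPM in replicate 2 (nearest 372 CPM), Gbp3 at 251 CPM in replicate 1 (nearest 277 CPM), and Ifi47 at 43.5 CPM in replicate 1 (nearest 55.2 CPM).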

How the results depend on the processing

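Against monocytes, the number of the 38 genes called was 33, 33, and 33 in Tim-4-CD4- cells, Tim-4-CD4+ cells, and Tim-4+CD4+ macrophages, and leaving out each library in turn gave 29 to 35, 30 to 34, and 31 to 34. For the 127 pathway genes these ranges were 81 to 89, 93 to 102, and 93 to 100. Between subsets, in the order Tim-4-CD4+ against Tim-4-CD4-, Tim-4+CD4+ against Tim-4-CD4-, and Tim-4+CD4+ against Tim-4-CD4+, they were 0 to 3, 4 to 7, and 0 to 1 of the 38 genes and 10 to 25, 31 to 50, and 0 to 2 of the pathway genes. With a minimum of 2-fold, 17 of the 38 were called in Tim-4-CD4- macrophages against monocytes, and 0 in the first and second comparisons between subsets, and the pathway counts were 48, 53, and 55 against monocytes and 2 and 6 between subsets. For Tim-4-CD4+ against Tim-4-CD4-, the 38 genes gave 2 calls with DESeq2 and 5 with only both of these populations fitted (Samhd1, Isg15, Gbp2, Gbp3, and Gbp7), and the pathway genes 34 with that fit. Without the filter on low counts, edgeR gave 0 calls of the 38 there, with 5 at an unadjusted p under 0.05. For Tim-4+CD4+ against Tim-4-CD4+, the pathway counts were 6 with DESeq2 and 2 with only both populations. Apart from the 2-fold minimum, shares over all genes are not given for the alternatives in this section. Their counts therefore cannot be set against all genes.

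Replicate numbers gave no sign of pairing. Across macrophage subsets, libraries of the same number deviated together with correlations from -0.123 to 0.161, and those of different numbers from -0.14 to 0.24. Titles and descriptions gave different numbers to some Tim-4-CD4+ libraries. These values cannot show whether subsets of a sort shared mice. With a replicate block by the titles, 31, 31, 32, 0, 4, and 0 of the 38 genes were called in the 6 comparisons (against monocytes first), and with a block by the descriptions 32, 31, 33, 0, 4, and 0. The calls lost under both blocks, titles first, were those of Igtp in Tim-4-CD4- macrophages (adjusted p = 0.094 and 0.08), Ifit2 (0.075 and 0.072) and Ifit3 (0.084 and 0.062) in Tim-4-CD4+ macrophages, Samhd1 in the fourth comparison (0.062 and 0.066), and Ifi44 in the sixth (0.091 and 0.078), and under the titles alone Ifit3 in Tim-4-CD4- (0.063) and Phf11d in Tim-4+CD4+ macrophages (0.053). At an unadjusted p under 0.05, edgeR with either block had 5 in the fourth and 2 in the sixth. The block by the descriptions called 2 pathway genes in the sixth.

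Single genes kept their side of the threshold in 4652 combinations of gene, comparison, and alternative, gained a call in 37, and lost it in 92. A called gene lost its call and turned in 1, Igtp in Tim-4-CD4- macrophages against monocytes. It ranged from -0.99 without monocyte replicate 2 to 0.0035 without monocyte replicate 1. Turns of direction in genes that were not called were not counted apart. DESeq2 gave Iigp1 no adjusted p. The calls most often lost against monocytes were those of Ifit3 in Tim-4-CD4+ macrophages (18 alternatives), Ifih1 there (10), Ifit3 in Tim-4-CD4- (7), Ifit2 in Tim-4-CD4+ (7), and Igtp in Tim-4-CD4- macrophages (7, with the turn). Mx2 was lost in both CD4+ subsets without monocyte replicate 3 (adjusted p = 0.2 and 0.07). Bst2 in Tim-4-CD4+ macrophages was called without monocyte replicate 2 (adjusted p = 0.033), and Rsad2 there without monocyte replicate 3 (adjusted p = 0.03). The causes were not tested. All 38 genes passed the filter on low counts, though Iigp1 had only 40 and 46 reads in monocyte replicates 2 and 3. The interferon genes had few reads, at most 45 for Ifnb1. The part of depth in the calls was not tested.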
